A study of Mus musculus with 28 samples.

Results

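Splicing factors and heterogeneous nuclear ribonucleoproteins (hnRNPs) were read in tissue and single cells of the mouse subventricular zone (SVZ). The genes were chosen by a name rule that was set with earlier results of these data known. The genes taken were those called Srsf with a number, Hnrnp, Snrp, or Sf3a or Sf3b with a number, without pseudogenes. They were 50 of the 37974 genes listed for the cells, and 41 of them were among the 36358 genes listed for the tissue. Of the 50 members, 12 were SR proteins, 18 were hnRNPs, 2 belonged to the U1 and 2 to the U2 small nuclear ribonucleoprotein (snRNP), 8 were Sm proteins, and 3 and 5 were subunits of SF3A and SF3B.

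All mice were C57BL/6 and no treatment was named. The tissue was the wall of the lateral ventricle beside the striatum, 3 samples taken at 3 weeks of age and 3 at 18 months. The 22 cells came from mice of 1 month and of 24 months. The younger age gave 3 Prom1+, 2 Gfap+ and 5 Dlx2+/Dcx+ cells, and the older age gave 3, 5 and 4. The cells were sorted by size and complexity, picked by hand and amplified with Smart-seq2. They were kept for sequencing after qPCR of their cDNA for markers that included Prom1, Gfap, Dlx2 and Dcx, and the names of the 3 subpopulations were given after their transcriptomes had been clustered. These markers therefore helped to choose the cells as well as to name them. Differences between subpopulations therefore describe groups that the same values helped to define. No animal was named for a cell, so the cells of a subpopulation and age counted as 1 sample, and no test was run on cells.

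Splicing removes introns from nuclear transcripts. The spliceosome is built from snRNPs, most of which carry a ring of Sm proteins around their RNA. The U1 snRNP recognises the 5′ splice site, and the U2 snRNP, with SF3A and SF3B, recognises the branch point. SR proteins mostly promote the use of an exon, and hnRNPs often oppose it, so that their balance shapes alternative splicing, which is widespread in the nervous system. Many of these genes control their own level through alternatively spliced transcripts that are degraded by nonsense-mediated decay.

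Such transcripts were counted in the GENCODE annotation of GRCm38, which does not show whether a gene controls its own level. Of the 49 members found there, 23 (46.9%) had an annotated transcript of the nonsense-mediated decay type, against 21.9% of the 20208 protein-coding genes of the cell table. Among the 11 annotated SR proteins the number was 9 (81.8%), and among the 18 hnRNPs it was 8 (44.4%). A transcript with a retained intron was annotated for 35 members (71.4%), against 44.6% of protein-coding genes. The deposited values were summed per gene, so the share of such transcripts could not be read from them.

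RefSeq promoter windows of GRCm38.p6, from 250 bases before to 50 after a transcription start, were found for 44 members (61 windows). They had a median of 25 CpG dinucleotides and 61% G and C, against 7 and 52.7% over all 32851 windows. The ETS motif CCGGAAGT, searched on both strands like all the others, was in 11 of the 61 windows (18%) and in 3.89% of all windows. The GC box GGGCGG was in 41 (67.2%, against 35.7%), and CCAAT was in 28 (45.9%, against 37.4%). The E2F motif TTTCCCGC was in 4 (6.56%, against 1.07%), and the TATA box TATAAA was in 7 (11.5%, against 13.6%). The YY1 motif AAGATGGC was in 2 (3.28%, against 2.75%) and the NRF1 motif GCGCATGC in 3 (4.92%, against 2.71%). Members were richer in G and C than other windows, and whether this accounted for the GC-rich motifs was not tested.

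The windows of 4 members are printed for the results that turn on them: Hnrnpa1 stood apart between subpopulations, Hnrnpul1 passed the adjusted threshold in the tissue, and Snrpe and Sf3b1 had the largest age differences toward higher values in Gfap+ and Prom1+ cells. Each is given 5′ to 3′ in the direction of its gene, and capitals mark the letters of the ETS, GC box, CCAAT or E2F motif on either strand. Hnrnpa1 lies at chr15:103240147-103240446 on the plus strand. The others are on the minus strand, with Hnrnpul1 at chr7:25754710-25755009, Snrpe at chr1:133610231-133610530 and Sf3b1 at chr1:55027429-55027728. In Hnrnpul1 an E2F match overlaps a GC box.
Hnrnpa1: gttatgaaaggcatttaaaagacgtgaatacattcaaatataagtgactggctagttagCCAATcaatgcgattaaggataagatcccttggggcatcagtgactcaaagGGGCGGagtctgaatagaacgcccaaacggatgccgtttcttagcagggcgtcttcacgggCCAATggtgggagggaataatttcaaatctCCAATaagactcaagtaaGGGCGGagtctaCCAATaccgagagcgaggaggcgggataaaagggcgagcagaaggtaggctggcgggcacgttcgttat
Hnrnpul1: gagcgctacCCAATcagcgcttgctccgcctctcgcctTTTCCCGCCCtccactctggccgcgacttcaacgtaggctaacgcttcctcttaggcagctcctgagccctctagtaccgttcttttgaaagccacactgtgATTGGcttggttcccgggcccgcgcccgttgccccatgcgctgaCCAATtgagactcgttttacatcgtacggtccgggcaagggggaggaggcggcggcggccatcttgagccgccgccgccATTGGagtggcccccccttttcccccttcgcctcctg
Snrpe: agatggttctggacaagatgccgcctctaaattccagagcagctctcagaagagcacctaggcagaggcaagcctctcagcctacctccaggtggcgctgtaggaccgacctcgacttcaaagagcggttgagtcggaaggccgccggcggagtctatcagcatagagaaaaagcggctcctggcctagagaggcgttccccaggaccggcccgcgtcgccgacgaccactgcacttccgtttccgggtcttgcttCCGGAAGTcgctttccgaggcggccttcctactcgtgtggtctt
Sf3b1: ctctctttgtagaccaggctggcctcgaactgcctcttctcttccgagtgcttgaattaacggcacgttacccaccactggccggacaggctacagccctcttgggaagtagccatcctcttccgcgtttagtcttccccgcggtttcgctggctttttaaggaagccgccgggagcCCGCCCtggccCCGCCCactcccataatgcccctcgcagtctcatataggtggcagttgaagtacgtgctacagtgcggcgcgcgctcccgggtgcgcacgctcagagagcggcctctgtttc
The Hnrnpa1 window held 4 CCAAT boxes and 2 GC boxes, all in the direction of the gene. The Snrpe window held 1 ETS match, just after the transcription start, and the Sf3b1 window held 2 GC boxes on the opposite strand.

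Expression was deposited as FPKM (mapped fragments scaled to transcript length and to the depth of the library), and differences are given on the log2(FPKM + 1) scale, which understates changes of low genes. Genes at or above 1 FPKM numbered 11733 to 12127 per tissue sample, and their depth could be estimated only roughly, from the steps between low values. The depth of a cell cannot be read from FPKM values, read totals listed by the study were not used here, and 4398 to 6626 genes per cell were above 1 FPKM. A value of 0 in a cell is called listed at 0, because the β-actin gene Actb had a value of 0 throughout the 6 Prom1+ cells, against 10900 FPKM or more in every other cell. The markers followed the names of the Prom1+ and Dlx2+/Dcx+ cells: Prom1 was 1.49 to 56.6 FPKM in Prom1+ cells, at most 0.452 in Gfap+ cells and at most 6.29 in Dlx2+/Dcx+ cells, and Dlx2 was 270 to 1916 in Dlx2+/Dcx+ cells and at most 2.79 elsewhere. Gfap was 48.7 to 194 in Gfap+ cells and at most 0.332 elsewhere, but these cells also held Mbp at 6346 to 19572 and Mag at 924 to 4960, and the astrocyte genes Aqp4 and Aldh1l1 were at most 0.0934. Over the whole list, 12 oligodendrocyte genes summed to 40677 to 93857 FPKM in Gfap+ cells. The 8 astrocyte genes summed to 187 to 2716 in Gfap+ cells, 95.5 to 583 in Prom1+ cells and 0.0747 to 579 in Dlx2+/Dcx+ cells, and of these Aldh1l1 and Gjb6 were listed at 0 in all 7 Gfap+ cells. They are called Gfap+ as labelled.

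Members were among the genes most widely detected in the cells. Of the 50, 49 passed the filter of more than 1 FPKM in at least 3 of the 22 cells, and Srsf12 was listed at 0 in every cell. Of those 49, 15 (30.6%) were above 1 FPKM in all 22 cells, against 545 of the 11332 genes that passed (4.81%). The 15 were the hnRNP genes Hnrnpa2b1, Hnrnpa3, Hnrnph1, Hnrnpk, Hnrnpl, Hnrnpu and Hnrnpul1, the SR genes Srsf2, Srsf2.1, Srsf3, Srsf5 and Srsf9, the Sm genes Snrpb and Snrpn, and Sf3b2.

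**Figure D1:**
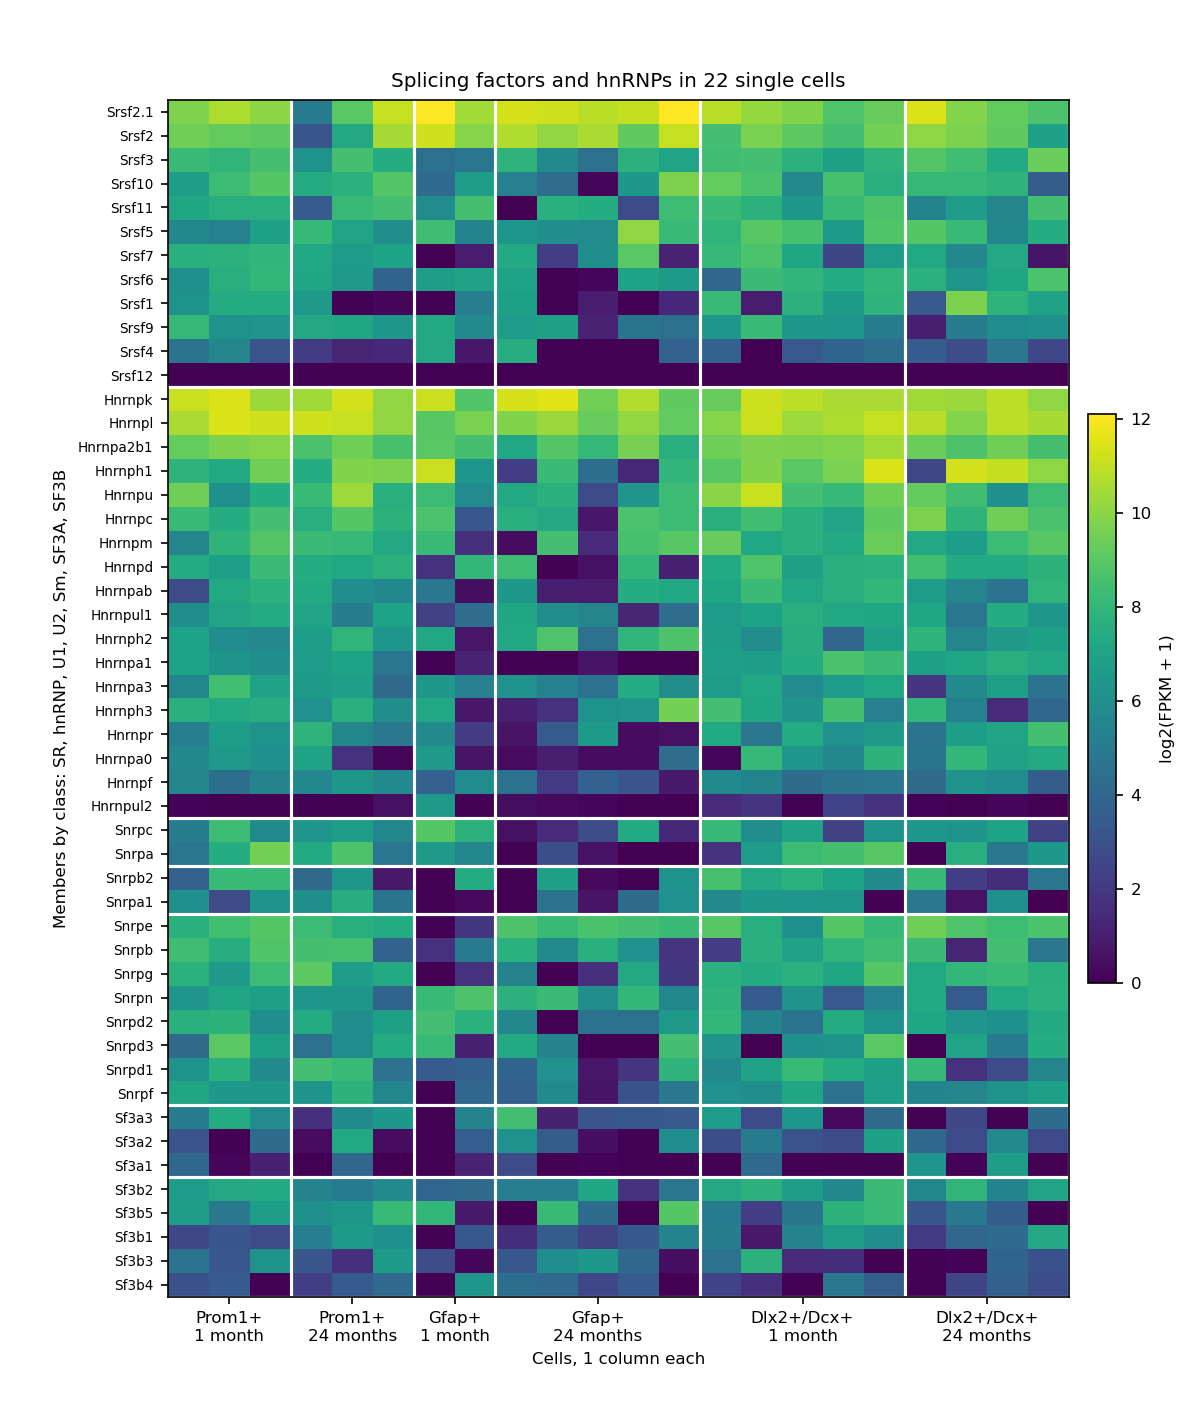
Level of each of the 50 members (rows, grouped by class and ordered by median within a class) in each of the 22 cells (columns, grouped by subpopulation and age), as log2(FPKM + 1). Hnrnpk and Hnrnpl are bright in every cell, Srsf12 is dark throughout, and Hnrnpa1 is dark in the 7 Gfap+ cells alone.

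The highest median over the 22 cells was that of Hnrnpk, a binder of C-rich RNA, at 1511 FPKM with a range of 454 to 3012. Hnrnpl, which binds CA repeats, had a median of 1383 FPKM and a range of 492 to 2756. Hnrnpa2b1, an abundant hnRNP that also takes part in mRNA transport, had a median of 633 FPKM and a range of 151 to 1382. Between the lowest and the highest cell these 3 genes moved by less than 1 order of magnitude, which no other member did. Srsf2, an SR protein that binds exonic enhancers, had a median of 731 FPKM but ranged from 8.33 in 1 Prom1+ cell of 24 months to 2421. A second record with the same listed locus, deposited under the name Srsf2.1, had a median of 1276 FPKM, is absent from the annotation used, and may share reads with Srsf2. Srsf2 also overlaps Mettl23 and Mfsd11 on the opposite strand, and the counting of strand is not given in the sources used here.

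The lowest members, after Srsf12, included 3 subunits of the branch-point complex. Sf3a1 had a median of 0.072 FPKM and was above 1 in 8 of 22 cells, with a highest value of 111. Hnrnpul2 had a median of 0.085 FPKM and was above 1 in 5 cells. Sf3b4 had a median of 6.64 FPKM and a range of 0 to 77.3, and Sf3a2 had a median of 7.83 and a range of 0 to 160. In the tissue, Sf3a1 was 20.4 to 26.1 FPKM, Sf3b4 was 27.7 to 60.9 and Srsf12 was 1.81 to 7.3, so that each of these genes was above 1 FPKM in every tissue sample. Across the 41 members in both tables the medians of cells and tissue were related with Pearson's r = 0.49 and Spearman's rho = 0.48, given as a description across genes, which are not independent replicates.

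The members were listed lower in Gfap+ cells than in the other subpopulations. The median over the 49 members, on the log2(FPKM + 1) scale, was 6.33, 7.36 and 7.41 in Prom1+ cells of 1 month and 6.69, 7.04 and 6.07 in those of 24 months. It was 5.86 and 4.74 in Gfap+ cells of 1 month and 6.23, 5.33, 2.86, 4.47 and 5.96 in those of 24 months. In Dlx2+/Dcx+ cells it was 7.30, 7.26, 6.99, 7.03 and 7.74 at 1 month and 6.89, 6.29, 6.80 and 6.97 at 24 months. Of the Gfap+ cells, 6 lay below every Prom1+ and Dlx2+/Dcx+ cell, and the exception, at 6.23, lay above only the Prom1+ cell at 6.07. The number of members above 1 FPKM did not overlap between Gfap+ cells (31 to 41 of 49) and the others (43 to 48 in Prom1+ and 43 to 47 in Dlx2+/Dcx+ cells). The number of all genes above 1 FPKM did overlap, at 4398 to 6061 in Gfap+ cells, 5924 to 6626 in Prom1+ cells and 5081 to 6286 in Dlx2+/Dcx+ cells. Over all cells and members, 76.4% of values in Gfap+, 94.2% in Prom1+ and 93% in Dlx2+/Dcx+ cells were above 1 FPKM, against 45%, 52.7% and 46.6% over the 11332 genes. As a share of all FPKM outside the mitochondrial genome, the members without Srsf2.1 made up 0.536% to 1.06% in Gfap+ cells, 1.08% to 1.95% in Prom1+ cells and 1.07% to 1.96% in Dlx2+/Dcx+ cells. Srsf2.1, left out of the sum but not of the total, was 1382 to 4407 FPKM in Gfap+ cells. It was 30.9 to 2120 in Prom1+ and 427 to 2798 in Dlx2+/Dcx+ cells. The value of 4407 was in the Gfap+ cell with the share of 1.06%. The value of 427 was in the Dlx2+/Dcx+ cell with the share of 1.07%. With Srsf2.1 the shares of the groups would therefore overlap, and exact shares that include it were not computed.

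**Figure D2:**
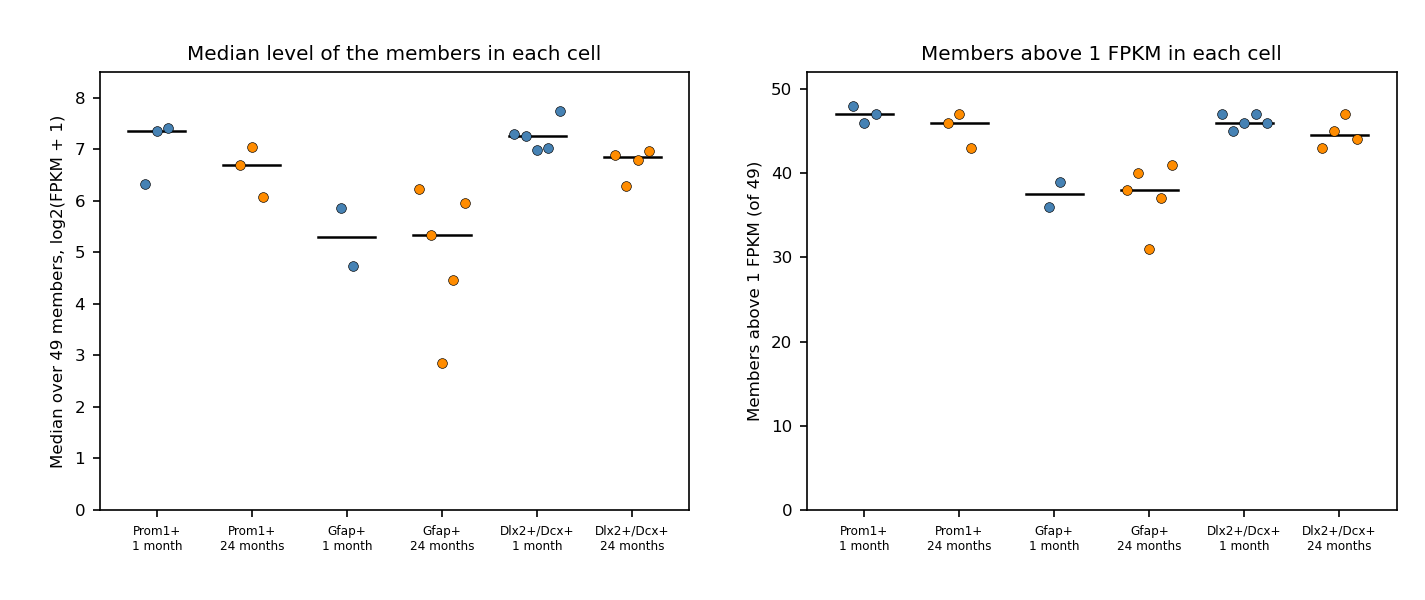
Median of the 49 members in each cell as log2(FPKM + 1) (left) and number of members above 1 FPKM (right), for each subpopulation and age (points, cells in blue at 1 month and orange at 24 months; lines, group medians). All Gfap+ cells but 1 have medians below every other cell, and their 31 to 41 members above 1 FPKM lie below every cell of the other subpopulations.

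Per gene, the mean was higher in Prom1+ than in Gfap+ cells for 42 of the 49 members, against 56.6% of all 11332 genes, and the median difference was 1.81, against 0.24. In Dlx2+/Dcx+ cells 40 of 49 were higher than in Gfap+ cells, against 52.3% of all genes, with a median difference of 1.52, against 0.08. Between Prom1+ and Dlx2+/Dcx+ cells 22 of 49 were higher in Prom1+ cells, against 56.1%, and the median difference was -0.21, against 0.15. The 11332 genes were not matched to the members for level. Their median per cell was 0.98 to 1.55 in Prom1+, 0 to 1.06 in Gfap+ and 0.33 to 1.33 in Dlx2+/Dcx+ cells. A gene near 0 in every cell can differ only a little, and the part of this in the contrast was not tested. Without the Gfap+ cell of 2.86, the median differences from Gfap+ cells were 1.56 (40 of 49 higher) for Prom1+ and 1.49 (39 of 49) for Dlx2+/Dcx+ cells. Among cells of 24 months they were 1.58 and 1.17 (38 and 34 of 49 higher), and among cells of 1 month 40 of 49 were higher in each comparison.

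In 38 of the 49 members the Gfap+ mean was below that of both other subpopulations, and in 5 it was above both. Against Prom1+ cells, 17 of 18 hnRNPs, 7 of 8 Sm proteins, 8 of 11 SR proteins, all 4 U1 and U2 proteins, 2 of 3 SF3A and 4 of 5 SF3B subunits were lower in Gfap+ cells. The median differences were 2.07 for hnRNPs, 2.23 for Sm proteins, 1.59 for SR proteins, 3.42 for U1 and 2.80 for U2 proteins, 0.98 for SF3A and 1.57 for SF3B. Against Dlx2+/Dcx+ cells they were 2.1 for hnRNPs, 1.58 for Sm proteins, 1.46 for SR proteins, 2.54 for U1 and 2.35 for U2 proteins, 1.16 for SF3A, and 0.08 for SF3B with 3 of 5 subunits lower in Gfap+ cells. Whether the classes differed from each other was not tested. The 5 members higher in Gfap+ cells than in both others were Hnrnpul2, Sf3b4, Snrpn, Srsf2 and Srsf2.1. Srsf2 was 570 to 2421 FPKM in Gfap+ cells, 8.33 to 1409 in Prom1+ cells and 122 to 1061 in Dlx2+/Dcx+ cells, ranges that overlap.

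Other components of splicing were lower in Gfap+ cells as well. Of 61 further core spliceosome genes, 49 were higher in Prom1+ and 44 in Dlx2+/Dcx+ than in Gfap+ cells, with median differences of 1.74 and 0.87. Of 42 further splicing regulators, 31 and 33 were higher, with median differences of 1.14 and 1.54, and of 13 snRNP assembly genes 10 and 9 were higher, with 0.97 and 0.32. The 9 kinases of splicing factors had median differences of -0.10 and 0.53. Cell type genes moved with the same groups: the summed level of the oligodendrocyte genes, given above for Gfap+ cells, was at most 373 FPKM elsewhere, and that of 20 proliferation genes was 41.3 to 384 in Gfap+ cells, 1923 to 7477 in Prom1+ cells and 2262 to 8477 in Dlx2+/Dcx+ cells. FPKM is a share of each cell's own total, so a few very abundant genes lower all others. Scaling each cell to the same total (TPM) raised the median differences to 2.29 and 1.98, against 0.44 and 0.27 for all genes. TPM is also a share of a total, so it does not remove the effect of very abundant genes. The part of these abundant genes, cell type, cell cycle and depth in the lower member levels was not tested.

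Hnrnpa1 was the member that stood apart between Gfap+ cells and each other subpopulation. It encodes the founding hnRNP A1 protein, which opposes SR proteins at splice sites. It was 127, 75.9 and 63.5 FPKM in Prom1+ cells of 1 month and 102, 130 and 26.4 in those of 24 months. It was 113, 109, 177, 390 and 302 FPKM in Dlx2+/Dcx+ cells of 1 month and 117, 141, 195 and 152 in those of 24 months. In Gfap+ cells it was listed at 0 in 5 of 7, and the other values were 1.2 at 1 month and 0.534 at 24 months. Every Gfap+ cell was thus below every other cell, and Prom1+ cells overlapped Dlx2+/Dcx+ cells.

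A member was called apart when the cells of the groups did not overlap and their means differed by more than 1 on the log2 scale. Hnrnpa1 met this with a difference of 6.05 between Prom1+ and Gfap+ cells and 7.18 between Dlx2+/Dcx+ and Gfap+ cells. It was 1 of 49 members in each comparison, against 4.40% and 3.05% of all genes, and between Prom1+ and Dlx2+/Dcx+ cells the count was 0, against 0.388%. As shares of the members, these counts were below those of all genes in each comparison. Hnrnpa1 remained apart in each of the 19 and 22 settings computed for these comparisons. Leaving out cells, taking 1 age alone, another pseudocount or no filter cannot make separate groups overlap. Of these settings only TPM scaling could have done so. With TPM scaling Hnrnpl and Snrpg joined it in both comparisons, and Snrpf in that with Prom1+ cells, which made 8.16% and 6.12% of members against 4.58% and 3.15% of all genes. Against Prom1+ cells the count was 3 without the third Prom1+ cell of 24 months and 2 without the second, the fourth or the fifth Gfap+ cell of 24 months, and the share of all genes was 4.88% to 5.29% when 1 cell was left out. Against Dlx2+/Dcx+ cells it was 2 without the fourth Dlx2+/Dcx+ cell of 1 month or without the third or the fourth Gfap+ cell of 24 months. The share of all genes was then 3.20% to 3.71%. Within 1 month, with 2 Gfap+ cells, 18 (36.7%) and 14 (28.6%) members were apart, against 24.7% and 15.0% of all genes. Within 24 months it was 3 (6.12%) in both comparisons, against 10.5% and 7.55%. Between Prom1+ and Dlx2+/Dcx+ cells 4 members (8.16%, against 6.99% of all genes) were apart within 24 months, Sf3b5 and Srsf9 higher and Snrpe and Srsf4 lower in Prom1+ cells. The promoter window of Hnrnpa1 is printed above, and its closely related Hnrnpa2b1 and Hnrnpa3 were above 1 FPKM in all 7 Gfap+ cells, at 151 to 779 and 22.5 to 179. Hnrnpa1 has near-identical processed copies in the genome, and how the counting split reads between them is not given in the sources used here.

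**Figure D3:**
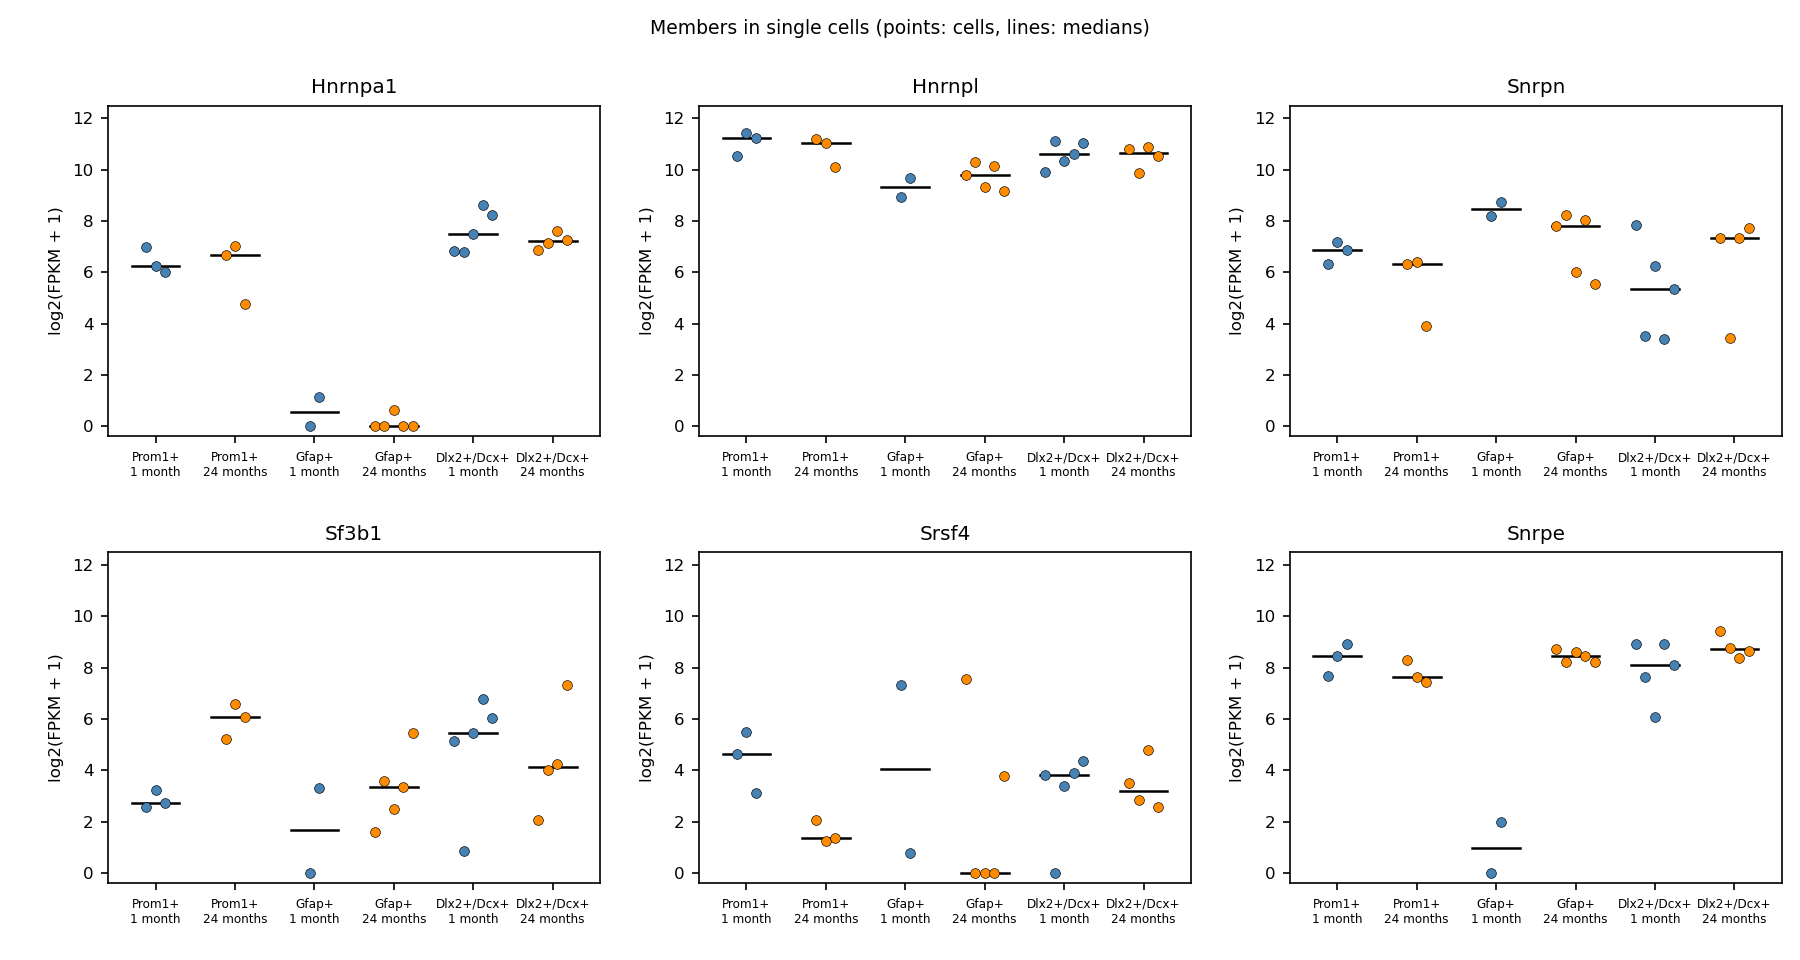
Levels of 6 members in single cells as log2(FPKM + 1), by subpopulation and age (points, cells in blue at 1 month and orange at 24 months; lines, group medians). Hnrnpa1 is at or near 0 in Gfap+ cells, Sf3b1 and Srsf4 separate the ages in Prom1+ cells in opposite directions, and Snrpe separates them in Gfap+ cells, where 1 month has 2 cells.

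Of the 42 further regulators 6 were apart between Prom1+ and Gfap+ cells and 4 between Dlx2+/Dcx+ and Gfap+ cells, and of the 61 further core genes 2 and 1, against the same 4.40% and 3.05% of all genes. Qk, an RNA-binding protein needed for myelination, was 1029 to 2175 FPKM in Gfap+ cells, 30.6 to 298 in Prom1+ cells and 0.506 to 177 in Dlx2+/Dcx+ cells. Mbnl2, a muscleblind protein, was 327 to 1515 in Gfap+ cells, at most 0.266 in Prom1+ cells and at most 208 in Dlx2+/Dcx+ cells. Msi1, an RNA-binding protein of neural stem cells, had the opposite pattern, at 0.269 to 2.18 in Gfap+ cells, 158 to 295 in Prom1+ cells and 40.5 to 222 in Dlx2+/Dcx+ cells. Elavl3 was higher and Tardbp and Khdrbs3 were lower in Gfap+ than in Prom1+ cells, and Elavl4 was lower in Gfap+ than in Dlx2+/Dcx+ cells. Of the core genes, Snrnp40, a U5 protein, was at most 0.33 FPKM in Gfap+ cells and 2.61 to 127 in the other subpopulations, and Lsm2 was 0 to 17.4 in Gfap+ and 22.7 to 441 in Prom1+ cells. Between Prom1+ and Dlx2+/Dcx+ cells U2af2 was higher and Nono lower in Prom1+ cells.

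The paralogous Sm proteins SmB and SmN are encoded by Snrpb, used in most tissues, and Snrpn, an imprinted gene known for its use in the brain. Snrpn was 292 and 429 FPKM in Gfap+ cells of 1 month and 221, 303, 63.2, 261 and 46.3 in those of 24 months, against 14 to 143 in Prom1+ and 9.53 to 230 in Dlx2+/Dcx+ cells. Snrpb was 2.27 to 213 FPKM in Gfap+ cells, 13.3 to 456 in Prom1+ cells and 1.4 to 360 in Dlx2+/Dcx+ cells. The median of Snrpn was above that of Snrpb in Gfap+ cells (261 against 53.4) and below it in Prom1+ (82.2 against 358) and Dlx2+/Dcx+ cells (75.4 against 205), and all these ranges overlap. Snrpn shares its locus with Snurf and Snhg14 on the same strand, and reads of these genes cannot be told apart.

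The comparison of ages asks what changes in each subpopulation as the mouse grows old. In Prom1+ cells 3 of 49 members were apart between 24 months and 1 month, against 7.00% of all genes. Sf3b1, the SF3B subunit that contacts the branch point, was 4.88, 8.38 and 5.68 FPKM at 1 month and 36.1, 96.1 and 66.2 at 24 months, a difference of 3.12. Sf3b2, which sits beside it, was 104, 156 and 169 FPKM at 1 month and 42, 31.7 and 54.7 at 24 months, a difference of -1.72. Srsf4, an SR protein, was 24, 44.5 and 7.59 FPKM at 1 month and 3.2, 1.4 and 1.57 at 24 months, a difference of -2.85. The SF3B subunits Sf3b1 and Sf3b2 thus lay in opposite directions. The median difference over the members was -0.31, against 0.00 for all genes.

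The ages of the 3 genes overlapped in Dlx2+/Dcx+ and in Gfap+ cells. Sf3b1 was 0.802 to 108 FPKM at 1 month and 3.13 to 159 at 24 months in Dlx2+/Dcx+ cells, a spread that covered the Prom1+ cells of both ages. Further splicing genes that were apart in Prom1+ cells were mostly lower at 24 months: 6 of 61 core genes, 6 of 42 regulators and 2 of 9 kinases were lower and none of these higher, and 1 of 13 assembly genes, Wdr77, was higher. Of all genes 3.68% were apart and lower and 3.32% apart and higher. Other lists also had mostly lower means at 24 months in the same cells, against 48.0% of all genes. Means were lower for 13 of 20 proliferation genes, of which 1 was apart and lower, while 1 other was apart and higher. They were also lower for 7 of 10 activated stem cell genes (2 apart) and 5 of 6 stress and immediate early genes (2 apart). The part of these lists in the splicing genes was not tested. Slu7, a second-step splicing factor, was 40.8 to 215 FPKM at 1 month and 0 to 22.4 at 24 months, Prpf39 was 35.6 to 140 and 1.11 to 33.8, and Txnl4a was 23.4 to 210 and 1.18 to 21.8. Of the regulators, Tra2a was 27.3 to 96.8 FPKM at 1 month and 0.0874 to 21 at 24 months, and Ptbp1, a repressor of neuronal exons, was 48.9 to 137 and 13.5 to 42, and Celf2 was 175 to 287 and 38 to 75.4. Of the kinases, Dyrk1a was 65.7 to 101 and 0.107 to 59.9, and Srpk1, which phosphorylates SR proteins, was 94.6 to 344 and 23.3 to 90.2. With 3 cells per age, leaving out 1 cell raised the count of members to 7 without the first or the second cell of 24 months, to 8 without the third, and to 11 without the first cell of 1 month. These were 14.3%, 16.3% and 22.4% of the members, against 13.1% to 14.0% of all genes when 1 cell was left out. Without the second cell of 1 month the count stayed at 3 (6.12%, against 13.6%). Without the third cell of 1 month it was 4 (8.16%, against 13.1%). Sf3b1, Sf3b2 and Srsf4 were apart in all 10 settings, of which only TPM scaling could have made separate ages overlap.

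In Gfap+ cells 5 of 49 members were apart, against 5.35% of all genes, from 2 cells of 1 month and 5 of 24 months. The mitochondrial share of FPKM did not overlap between these ages either, at 35.9% and 31.9% at 1 month and 15.4% to 22.3% at 24 months, and its part in the differences was not tested. The first cell of 1 month had the fewest genes above 1 FPKM of all cells, 4398, and 13 of the 49 members listed at 0. It gave the values of 0 for Snrpe and Srsf7 below, and the part of its low detection was not tested. Snrpe, which encodes the Sm protein SmE, was 0 and 2.91 FPKM at 1 month and 422, 294, 391, 355 and 299 at 24 months, a difference of 7.47. Srsf7, an SR protein, was 0 and 0.886 at 1 month and 167, 3.72, 64, 520 and 1.32 at 24 months, a difference of 4.72. The values of Snrpe were close together at 24 months and those of Srsf7 were not.

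The other 3 members were lower at 24 months, and both U1 proteins that the name rule took in were among them. Snrpc was 482 and 217 FPKM at 1 month and 0.455, 1.81, 6.25, 167 and 1.65 at 24 months, a difference of -5.60. Snrpa was 91.4 and 46.6 at 1 month and 0, 6.54, 0.531, 0 and 0 at 24 months, a difference of -5.35. Snrpd2, an Sm protein, was 361 and 214 at 1 month and 47.2, 0, 22.8, 21.2 and 90.6 at 24 months, a difference of -3.89. The median difference over the members was -0.02, against 0.16 for all genes. Of the further genes, Bcas2 and Srrm1 were higher and Lsm7 lower at 24 months. Without the first or the second cell of 1 month the count of members rose to 17 (34.7%) and 14 (28.6%), against 17.4% and 20.3% of all genes. The 5 named were in each, because leaving out a cell cannot make separate ages overlap.

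In Dlx2+/Dcx+ cells 0 of 49 members were apart, against 1.58% of all genes. The median difference was -0.40, against -0.14, and 34 of 49 means (69.4%) were lower at 24 months, against 55.8% of all genes. Lower means were also found for 13 of 20 proliferation genes (median -2.71, 4 of them apart), for 5 of 5 astrocyte and for 4 of 4 neuron genes, and their part in the lower members was not tested. The largest differences were -3.09 and 2.46, for members whose cells overlapped. Of the further genes, Prpf3, U2af1l4 and the kinase Clk3 were apart and lower at 24 months. Leaving out 1 cell gave 2 members (Snrpb2 and Snrpd1) without the first cell of 24 months, and 1 without the third (Hnrnpa3) or the fourth (Hnrnpab) cell of 24 months or the third (Hnrnpul2) or the fifth (Srsf9) cell of 1 month. The share of all genes was 2.36% to 3.20% in these settings, against 4.08% for 2 members and 2.04% for 1.

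In the tissue, 8 of 41 members differed between the ages by unadjusted p and 1 by adjusted p. All 41 members listed there were tested, among 12287 genes with at least 1 FPKM in at least 3 of the 6 samples. The median of the members was 4.59, 4.99 and 4.96 on the log2(FPKM + 1) scale at 18 months and 5.08, 4.65 and 4.76 at 3 weeks, and the ages overlapped. The members made up 0.441% to 0.528% of all FPKM at 18 months and 0.472% to 0.53% at 3 weeks. The median log2 fold change, 18 months minus 3 weeks, was 0.15, against 0.09 over all genes tested, and 33 of the 41 (80.5%) lay within 0.5 of 0, against 73.2% of all genes. Without the third sample of 3 weeks the median was 0.01. Hnrnpa0, Hnrnpa1, Hnrnpc, Hnrnpul2, Sf3b2, Sf3b3, Snrpd1, Srsf7 and Srsf2.1 were not analysed in the tissue here. In tissue, fewer cells of a type and less RNA per cell cannot be told apart.

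**Figure D4:**
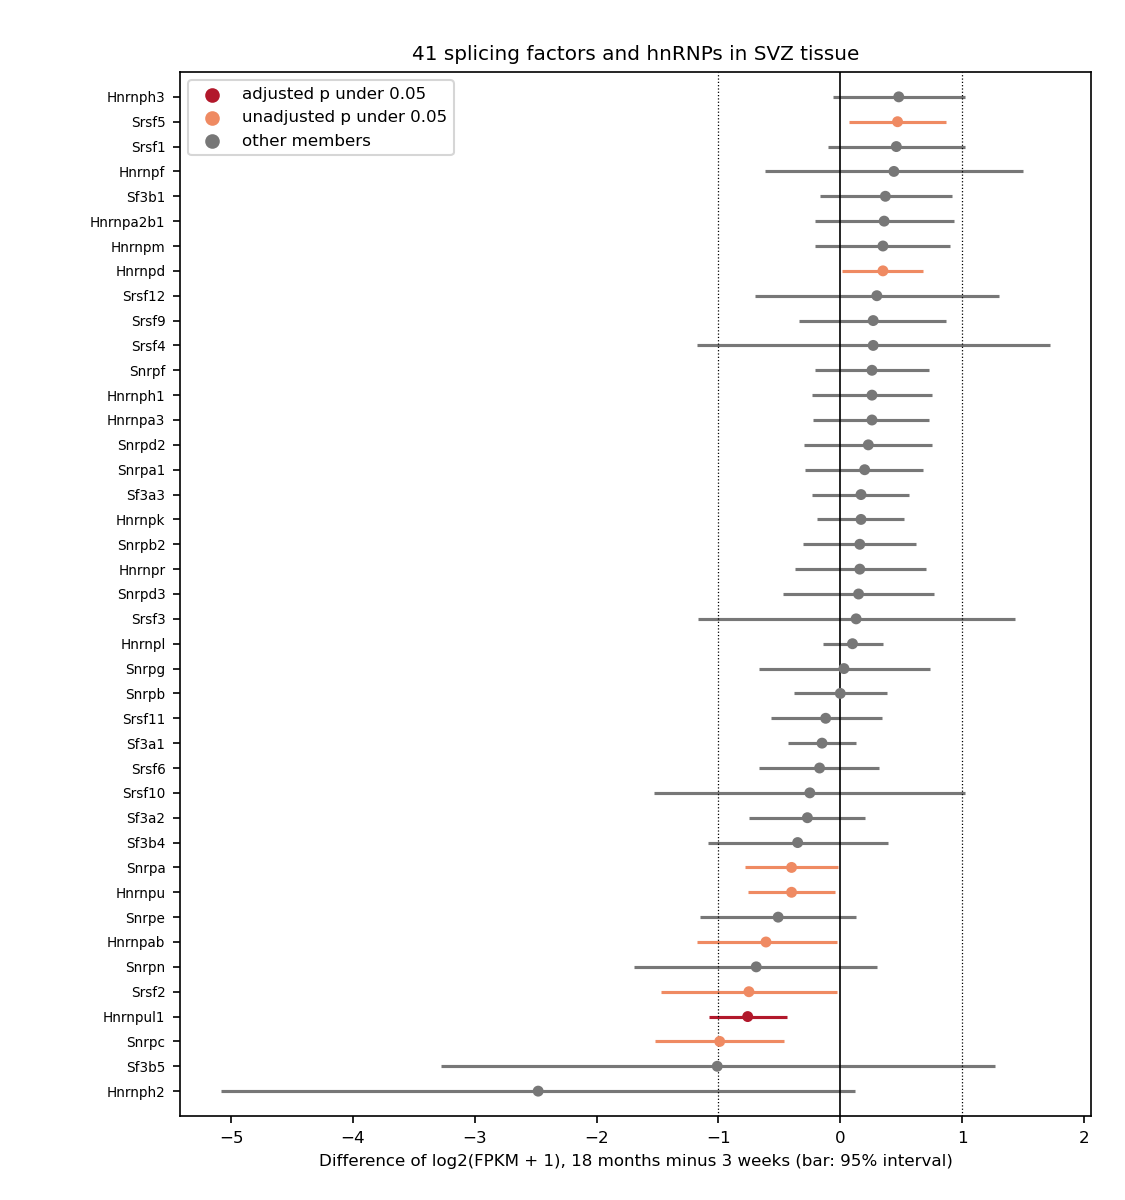
Difference between 18 months and 3 weeks in tissue for the 41 members, as log2(FPKM + 1), with 95% intervals of limma (points, estimates; dotted lines, a difference of 1 in either direction). Hnrnpul1 alone passes an adjusted p of 0.05, and the intervals of 33 members include 0.

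With the study's thresholds (log2 fold change past 1 in either direction, unadjusted p under 0.05), limma called 0 of the 41 members, against 3.90% of all genes tested. By unadjusted p alone 8 were called, 2 higher and 6 lower at 18 months, against 24.3% of all genes. The ages did not overlap in 9 members, against 33.1%. By adjusted p under 0.05 with no fold limit 1 was called, against 4.92%. All 4 shares of members were below those of all genes with every sample included, but not in each fit with 1 sample left out. At the study's thresholds the count was 2 (Srsf2 and Snrpc) without the first sample of 18 months, 1 (Snrpc) without the first of 3 weeks, and 3 (Hnrnph2, Snrpc and Snrpn) without the second of 3 weeks, which made 4.88%, 2.44% and 7.32% of members against 4.75%, 3.89% and 3.57% of all genes. By unadjusted p 15 members (36.6%, against 27.3%) were called without the first sample of 18 months. The ninth member whose ages did not overlap was Snrpe, with 23.7, 26.3 and 23.1 FPKM in the younger and 11.1, 19 and 22.3 in the older samples.

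Hnrnpul1, a protein related to hnRNP U, was the member called by adjusted p. It was 61.5, 59.9 and 66.5 FPKM at 3 weeks and 40.8, 31.3 and 38.4 at 18 months. All samples of 18 months were below those of 3 weeks. The means were 62.7 ± 3.43 at 3 weeks and 36.8 ± 4.95 at 18 months (SD, n = 3), and the log2 fold change was -0.76 (SE 0.13, limma adjusted p = 0.0374). It was negative in all 12 settings, from -0.84 to -0.65, and its adjusted p ranged from 0.0337 to 0.178. It was 0.0833 and 0.104 without the second or the third sample of 18 months, and 0.117, 0.134 and 0.123 without the first, the second or the third of 3 weeks. In cells it was 1.47 to 138 FPKM in Gfap+ and 26.1 to 196 in the others, with overlapping ages.

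Both U1 proteins that the name rule took in were lower at 18 months by unadjusted p. The rule does not take in every U1 protein. Snrpc was 51.1, 46.2 and 70.8 FPKM at 3 weeks and 33.6, 23.4 and 25.6 at 18 months. Its log2 fold change was -0.99 (SE 0.21, limma adjusted p = 0.0635), just under the fold limit, and it passed the study's limits with a pseudocount of 0.1 or quantile normalization. Snrpa was 74.8, 80.5 and 92.1 FPKM at 3 weeks and 73.5, 61 and 53.6 at 18 months, a log2 fold change of -0.40 (SE 0.15, limma adjusted p = 0.19). Neither gene's ages overlapped, and both genes were also lower in the Gfap+ cells of the older mice, which came from other ages and a separately normalized table. Snrpe and Snrpd2, also apart in Gfap+ cells, went the other way. Their differences were 7.47 and -3.89 in Gfap+ cells and -0.51 and 0.23 in the tissue.

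**Figure D5:**
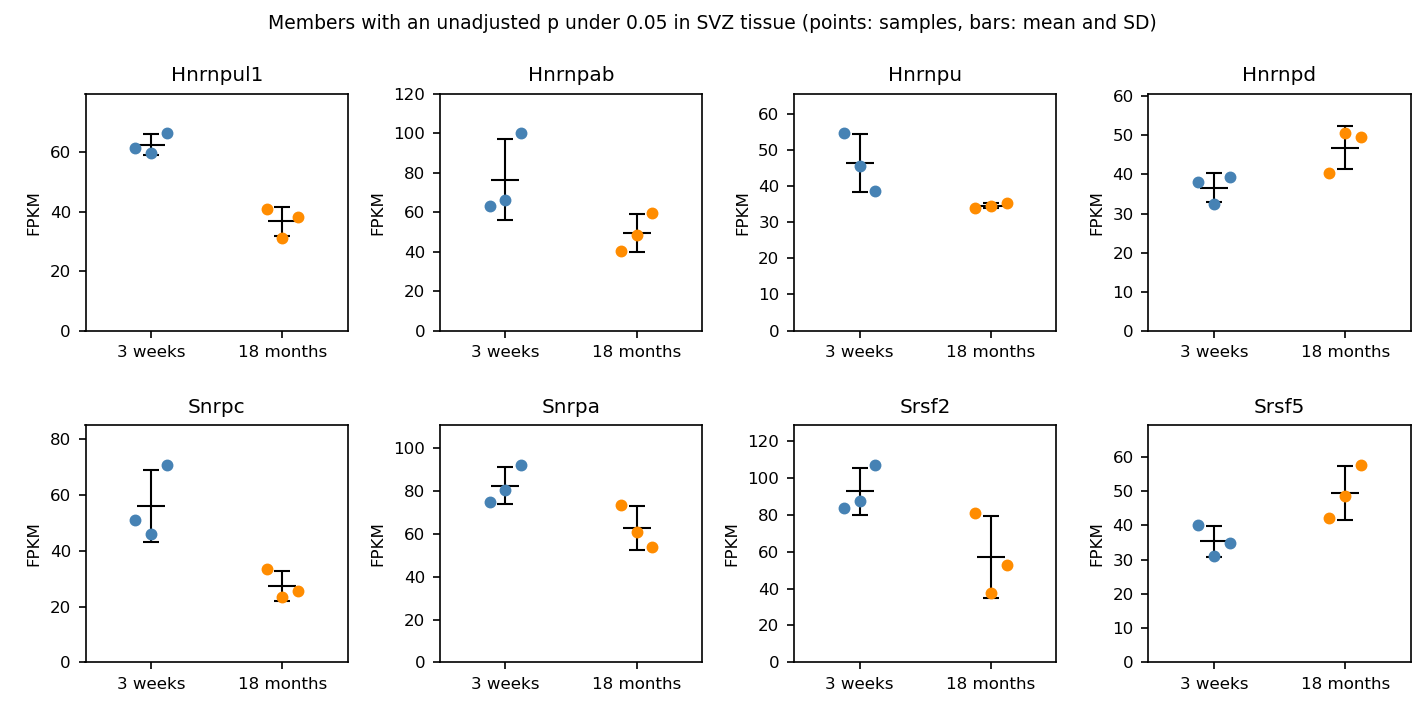
FPKM of the 8 members with an unadjusted p under 0.05 in tissue, by age (points, samples; bars, mean and SD of 3 samples). Srsf5 and Hnrnpd are higher at 18 months and the other 6 are lower, and no panel has samples of the 2 ages overlapping.

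The other members with an unadjusted p under 0.05 were named after their values were seen, and their limma adjusted p lay between 0.155 and 0.196. Among the SR proteins, Srsf5 was 40.1, 31 and 34.9 FPKM at 3 weeks and 42.1, 48.6 and 57.7 at 18 months, a log2 fold change of 0.47 (SE 0.16). Srsf2 was 83.4, 87.6 and 107 at 3 weeks and 81.1, 37.4 and 52.8 at 18 months, a change of -0.75 (SE 0.29). These 2 SR proteins lay in opposite directions. Among the hnRNPs, Hnrnpd, which also binds AU-rich mRNA, was 38, 32.5 and 39.4 FPKM in the younger and 40.5, 50.6 and 49.6 in the older samples, a change of 0.35 (SE 0.14). Hnrnpu, a nuclear matrix protein, was 54.6, 45.5 and 38.6 FPKM in the younger and 33.8, 34.5 and 35.2 in the older samples, a change of -0.40 (SE 0.15). Hnrnpab was 63.2, 66.2 and 100 FPKM in the younger and 40.4, 48.3 and 59.6 in the older samples, a change of -0.61 (SE 0.23). Each of the 8 genes kept its direction in all 12 settings, but the unadjusted p stayed under 0.05 in all 12 for Hnrnpul1 and Snrpc alone, in 8 for Hnrnpab, 7 for Srsf5 and Snrpa, 6 for Srsf2 and 5 for Hnrnpd and Hnrnpu. The change of Srsf2 was -1.04 without the first and -0.49 without the second sample of 18 months, and that of Hnrnpab was -0.40 without the third sample of 3 weeks.

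Some members varied more between samples of 1 age than between ages. Hnrnph2 was 37.3, 1.65 and 32.2 FPKM at 3 weeks and 1.74, 1.26 and 2.1 at 18 months, a log2 fold change of -2.48 with a 95% interval of -5.08 to 0.12. Its second sample of 3 weeks lay with those of 18 months, and Hnrnph1, a close paralog with which it may share reads, was 57.8 to 69.7 and 60.2 to 98.7 FPKM. Snrpn was 29.7, 12 and 31.8 FPKM at 3 weeks and 12.4, 18.1 and 11.1 at 18 months, a change of -0.69 (SE 0.40), with its second sample of 3 weeks again low. Snrpb was 38.2, 40.5 and 40.2 FPKM at 3 weeks and 32.4, 47.2 and 40.3 at 18 months, with a 95% interval of the change from -0.38 to 0.38. Sf3b5 was listed at 0 in 1 sample of 18 months and was 7.42 to 9.35 in the other 5.

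Of the classes, SR proteins had a median log2 fold change of 0.20 (10 tested), hnRNPs of 0.21 (14), Sm proteins of 0.03 (7), U1 proteins of -0.69 (2), U2 proteins of 0.18 (2), SF3A of -0.15 (3) and SF3B of -0.35 (3). Members apart in Prom1+ cells did not pass in the tissue: Sf3b1 had 0.37 with a 95% interval of -0.17 to 0.92, and Srsf4 had 0.27 with -1.18 to 1.72. For Snrpe the change was -0.51, with -1.15 to 0.13. These intervals do not show that the ages were alike.

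Of the further splicing genes 5 were called in the tissue by adjusted p. Of 51 further core genes tested, Slu7 was higher and Lsm2 lower by adjusted p, and limma called 0 at the study's limits (8 by unadjusted p, 6 higher and 2 lower). Of 37 regulators, Mbnl1 was higher and Msi1 lower, at both limits (8 by unadjusted p, 2 higher and 6 lower). Of 12 assembly genes Gemin2 was higher at both, and 6 of the 12 (against 24.3% of all genes) passed an unadjusted p, 4 higher and 2 lower, with the ages not overlapping in 8 (66.7%, against 33.1%), while of 7 kinases 0 were called by limma at either limit or by unadjusted p. These were 3.92% of core, 5.41% of regulator and 8.33% of assembly genes by adjusted p, against 4.92% of all genes. Msi1 was 26.9, 31.4 and 36.5 FPKM at 3 weeks and 14.8, 14.4 and 14 at 18 months, a log2 fold change of -1.07 (SE 0.14, limma adjusted p = 0.017). Mbnl1, a muscleblind protein, was 8.46, 8.51 and 10.2 at 3 weeks and 19.9, 18.2 and 26.7 at 18 months, a change of 1.15 (SE 0.18, adjusted p = 0.0268). Slu7 had 0.55 (adjusted p = 0.0491), Lsm2 had -0.56 (adjusted p = 0.0455), and Gemin2, part of the SMN complex, had 1.01 (adjusted p = 0.0449). Slu7 thus differed in opposite directions in the tissue and in Prom1+ cells, and that difference was not tested.

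Markers of cell types moved with age in the same tissue. The summed level of 10 oligodendrocyte genes lay between 20027 and 22229 FPKM at 3 weeks and between 3850 and 4545 at 18 months, with Olig1 listed at 0 at both ages and Olig2 at 18 months. That of 17 proliferation genes was 177 to 193 and 78 to 94.6, of 11 neuroblast genes 478 to 524 and 325 to 336, of 10 activated stem cell genes 351 to 415 and 141 to 344, of 6 endothelial genes 42.7 to 56.8 and 30.7 to 35.1, and of 5 erythrocyte genes 700 to 834 and 289 to 528. Neuron genes (9) summed to 1612 to 1962 at 3 weeks and 2574 to 2940 at 18 months, and ependymal genes (5) to 142 to 175 and 187 to 221. The ages overlapped for astrocyte (626 to 1003 and 682 to 951), microglia (270 to 386 and 351 to 382) and stress and immediate early genes (64.5 to 230 and 114 to 154). Whether these shifts bear on Hnrnpul1, the U1 proteins or Msi1 was not tested.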

How the data were processed

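RNA of SVZ tissue (6 samples) and of 22 single cells amplified with Smart-seq2 was analysed. The authors deposited FPKM values for both, 1 column per sample or cell. The submitters' processing notes name GRCm38, HISAT2, StringTie and featureCounts. Versions, annotation, strand setting and any scaling between samples are not given in the sources used here. The study called genes with DESeq2 on read counts, which were not used here. Each sample's group and age came from its label, which names no animal for a tissue sample. The study gives 3 mice per age for the tissue, and p-values measure the spread between these samples. Tissue depth was estimated from the steps between low FPKM values.

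Genes with at least 1 FPKM in at least 3 tissue samples were tested with limma 3.58.1 (lmFit, eBayes with trend, R 4.3.3) on log2(FPKM + 1) with 1 term for age, and p-values were Benjamini-Hochberg adjusted over the 12287 genes. The script was tested on simulated data. In cells, genes above 1 FPKM in at least 3 of 22 cells were compared without a test (Python 3.11.15, pandas 2.3.3, numpy 2.4.6, figures with matplotlib 3.10.9). Symbols, positions and transcript types came from GENCODE M21, and promoters from RefSeq. The positions listed for the cells overlapped GRCm38 in 12.8% of genes and were not used.

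The members, 4 lists of other splicing genes (core spliceosome, regulators, kinases, snRNP assembly) and 11 lists of cell type, proliferation, stress and blood genes were chosen with earlier results of these data known. Genes named are those called in the tissue by adjusted p (up to 6 per direction), those apart in cells (up to 3 per direction for age and 4 for subpopulation), the 5 highest and 5 lowest in cells, Snrpb, Snrpn, members at 0 in every cell, and up to 3 called genes per direction of each other list. Others were named after their values were seen. Alternatives were a pseudocount of 0.1, no filter, TPM scaling, quantile normalization, the replicate number as a block, each age alone, and each sample or cell left out. The median difference between subpopulations was added after seeing the data.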

Additional observations from a re-analysis of the deposited data

Results flagged for a closer look

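Within the groups of 4 or 5 cells, the values of the named members were searched for a cell far from the rest of its subpopulation and age. Of 69 sets of values 9 held such a cell. Chance alone gives about 1 in 20 only for normally distributed values. Some of these sets hold mostly values at or near 0, so that rate does not apply and the 9 are not read as an excess. Among the Dlx2+/Dcx+ cells of 1 month, the second cell had Sf3a1 at 16.6 FPKM, far above the others, and Sf3b1 at 0.802 and Srsf4 listed at 0, both far below the others. The first cell of that group had Snrpb at 3.54 FPKM, far below the others. Among the Dlx2+/Dcx+ cells of 24 months, Snrpc was 4.21 FPKM in the fourth cell and Snrpn was 9.84 FPKM in the second, both far below the rest. Among the Gfap+ cells of 24 months, Hnrnpa1 was 0.534 FPKM in the third cell and listed at 0 in the other 4, Sf3a1 was 6.01 FPKM in the first cell, and Snrpa was 6.54 FPKM in the second. These are values of single cells, and they were not tested further.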

How the results depend on the processing

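In the tissue, the number of members past the study's limits, 0, was 1 with a pseudocount of 0.1 or quantile normalization (Snrpc) and 0 to 3 when 1 sample was left out. The number past an adjusted p of 0.05, 1, was 0 without a filter on low values, 8 for an unadjusted p, and 0 to 1 when 1 sample was left out, where the member was Hnrnph2 without the second sample of 3 weeks and Hnrnpul1 without the first of 18 months. Replicate numbers did not pair the tissue samples (correlations of their deviations between -0.098 and -0.0107), and with the replicate number as a block 1 member (Hnrnph2) passed the study's limits and 0 passed the adjusted p. The median log2 fold change lay between 0.01 and 0.19 in all settings run. In cells, the number of members apart between ages ranged from 3 to 11 in Prom1+, 6 to 17 in Gfap+ and 0 to 2 in Dlx2+/Dcx+ cells when 1 cell was left out. Between Prom1+ and Gfap+ cells it was 4 with TPM scaling, 18 within 1 month, 3 within 24 months and 1 to 3 with 1 cell left out. Between Dlx2+/Dcx+ and Gfap+ cells these numbers were 3, 14, 3 and 1 to 2, and between Prom1+ and Dlx2+/Dcx+ cells the count was 4 within 24 months. Fewer cells make groups that do not overlap more frequent by construction, and the cause of the other changes was not tested. No paired analysis of the cells was possible because no animal was named for a cell. Cell depth cannot be read from FPKM values, so a value of 0 does not show that a gene was off.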
